A study of Mus musculus with 2 samples.

Results

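The 8 genes described here encode matricellular proteins: Postn (periostin), Cilp (cartilage intermediate layer protein), Tnc (tenascin-C), the thrombospondins Thbs1, Thbs2 and Comp, and the related proteins Sparc and Sparcl1. They were 8 of the 27998 genes in the deposited matrices. They were chosen from measured values, namely the large day 7 levels of Cilp and Postn in fibro-adipogenic progenitors (FAPs) and of Sparcl1 in endothelial cells. The ratios that chose them are therefore given as a description. All 8 had counts in both libraries.

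The genes lie on 8 chromosomes (GENCODE vM21, mm10), and all are protein-coding. Postn (ENSMUSG00000027750) is on the plus strand of chromosome 3 from 54361109 to 54391037, and Cilp (ENSMUSG00000042254) on the plus strand of chromosome 9 from 65265180 to 65280605. Tnc (ENSMUSG00000028364) is on the minus strand of chromosome 4 from 63959785 to 64047015. Thbs1 (ENSMUSG00000040152) is on the plus strand of chromosome 2 from 118111876 to 118127133, Thbs2 (ENSMUSG00000023885) on the minus strand of chromosome 17 from 14665500 to 14694235, and Comp (ENSMUSG00000031849) on the plus strand of chromosome 8 from 70373558 to 70382066. Sparc (ENSMUSG00000018593) is on the minus strand of chromosome 11 from 55394500 to 55423183, and Sparcl1 (ENSMUSG00000029309) on the minus strand of chromosome 5 from 104079111 to 104113733.

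Matricellular proteins are secreted into the extracellular matrix, where they mainly modify how cells attach, migrate and respond to growth factors rather than bear load as collagens do. Many are sparse in resting adult tissue and appear during wound repair. In injured muscle, FAPs are the stromal cells that deposit most of the collagenous matrix around regenerating fibres, while infiltrating leukocytes dominate the first days after injury.

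Single-cell RNA sequencing was done on the tibialis anterior, which lies along the shin, of 2 mice with droplet chemistry (10x, v3). The muscles had been injured with notexin, a toxin from snake venom that kills muscle fibres. Day 2 and day 7 after injury were each represented by 1 library. Both groups carried the genotype label C57Bl/6 and the label of 7 months of age, and the deposited annotation gives whole-muscle dissociation and 1 mouse per library. No uninjured library was analysed here, so every ratio compares day 7 with day 2.

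The libraries held 4836 called barcodes with 41123913 counts at day 2 and 4889 with 32356088 at day 7. Of these, 3178 and 3196 annotated cells were kept, with medians of 9058.5 and 6583 counts. The called sets shared 4 barcodes and the kept sets 1. Both libraries are labelled female, yet 4 Y-linked genes summed to 159.9 and 150.1 counts per 1000000 (CPM) and Xist had 5 and 1 counts in all, and the annotation gives male for both. The annotation also gives 4 months of age at day 2 where the labels give 7. The 2 mice may thus differ in more than time, and time, mouse and library cannot be told apart.

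Levels are given in CPM, from counts summed over the cells of an annotated type and scaled to a total of 1000000. Ranges in parentheses are 95% intervals for counting error only. With 1 library per day there was no replicate, and no test was made. Cell types with at least 20 kept cells in a library were given a level, which left 18 types at day 2 and 23 at day 7. Ambient RNA, read from barcodes with 1 to 100 counts, was set beside low levels.

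The annotated types were checked against markers. FAPs held all 5 of their markers at 11237 CPM at day 2 and 27422 at day 7, and 0.584 and 31.2 CPM of tenocyte markers, whose Mkx, Fmod and Kera were at 0 at day 2. Endothelial cells held all 5 of theirs, at 5452 and 7034 CPM. The label Smooth Muscle went against its name in part. Its 5 own markers (Acta2, Myh11, Rgs5, Kcnj8, Pdgfrb) summed to 2337 CPM at day 2 and 4270 at day 7, but 5 endothelial markers summed to 4356 and 6061 there. Pecam1, an endothelial adhesion molecule, was found in 94.7% of its cells at day 2 and 86.2% at day 7, against 38.2% and 41.8% for Acta2, the smooth muscle actin. Rgs5, a pericyte gene, was the most frequent of the 5 mural markers, in 74.3% and 69.4% of the cells, and at 1468 and 2699 CPM it stood above each of the 5 endothelial markers. These barcodes are called labelled Smooth Muscle below.

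In FAPs, 5 of the 8 genes were at least 4-fold higher at day 7 and 0 were at least 4-fold lower. Over the 11851 genes with at least 20 counts in FAPs, 10.7% were at least 4-fold higher and 3.38% at least 4-fold lower. FAP ratios chose the genes, so nothing is read from this count or from the median that follows. The median log2 fold (day 7 over day 2) was 3.43 for the 8 genes and 0.21 for all genes tested. The genes outside the limit were Thbs1, at a log2 fold of -1.93, Thbs2, at 1.82, and Tnc, at -1.78. Tnc and Thbs1 passed it under other settings given below.

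**Figure D1:**
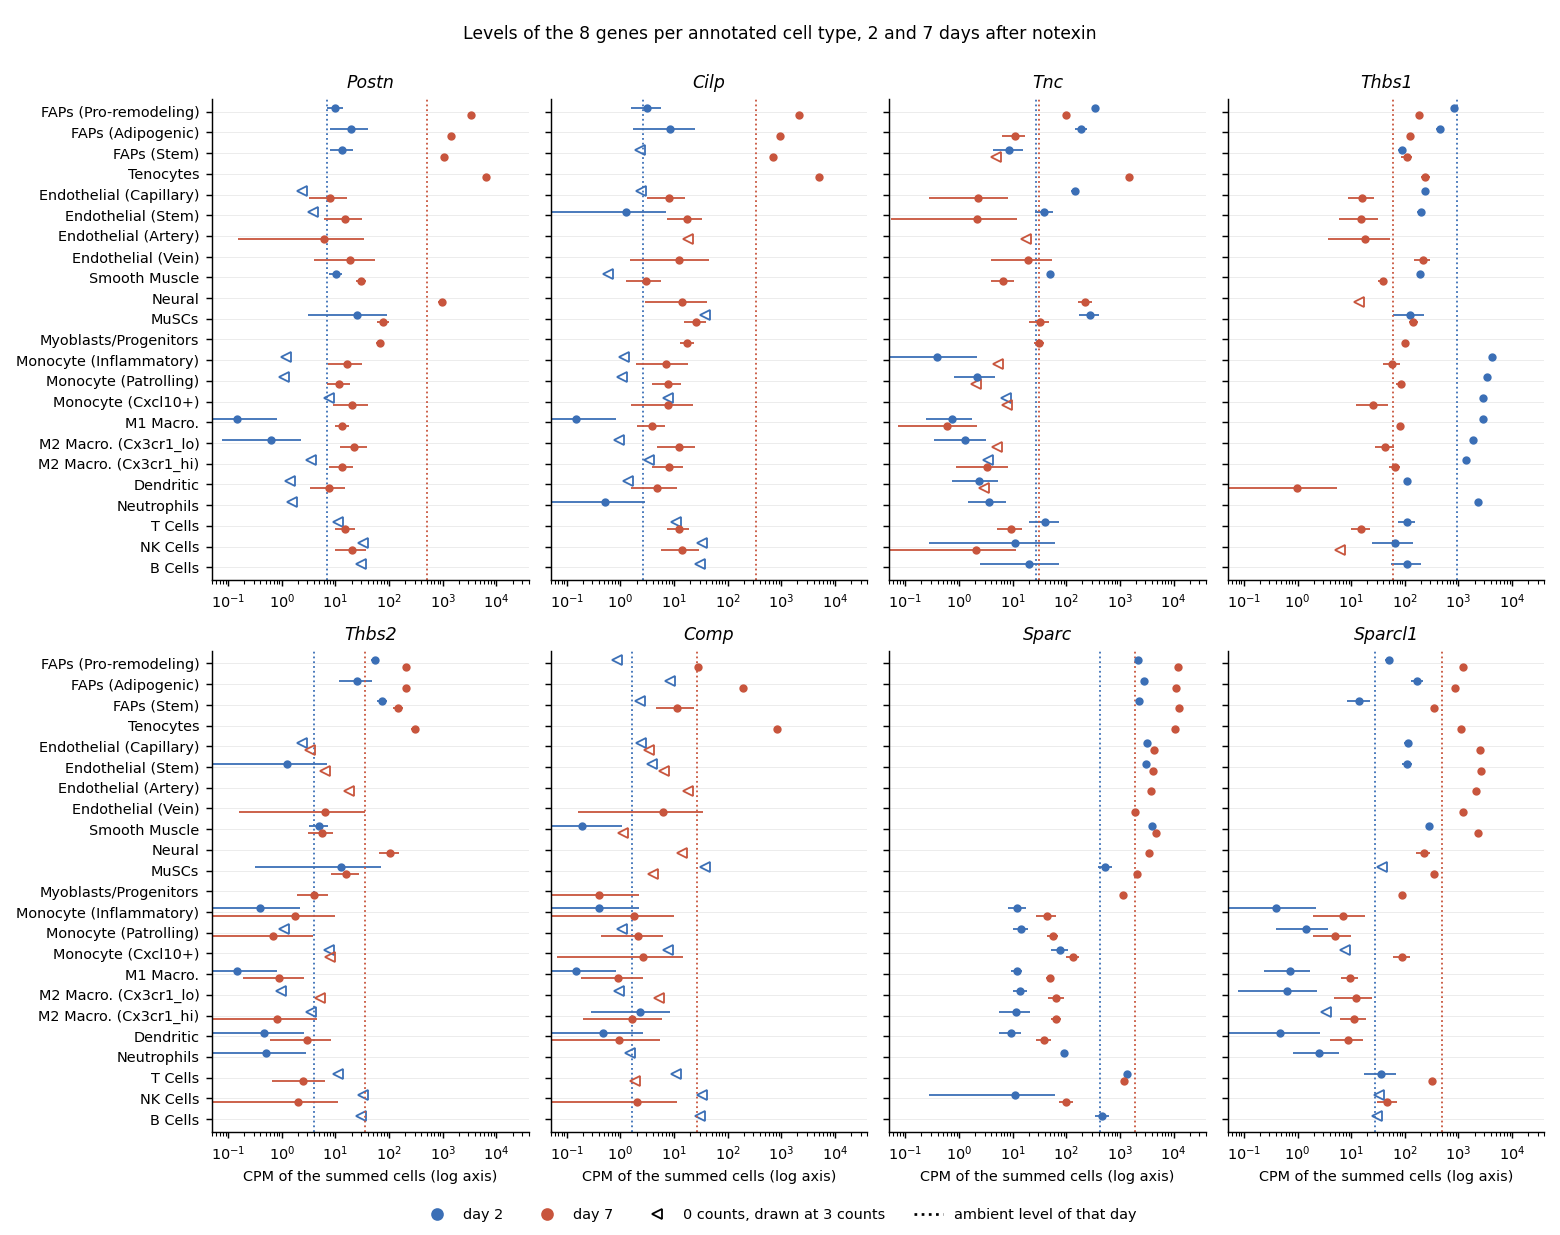
Levels of the 8 genes in the annotated types other than myonuclei, as CPM on a log axis, at day 2 (blue) and day 7 (red); bars are 95% counting intervals, open triangles mark 0 counts drawn at 3 counts, and dotted lines are the ambient level of the day. Types with under 20 cells in a library have no point, tenocytes at day 2 among them; Postn and Cilp sit far to the right at day 7 in the 3 FAP labels and tenocytes, and Thbs1 at day 2 in monocytes, macrophages and neutrophils.

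Postn and Cilp lay almost wholly in FAPs and tenocytes at day 7. Periostin binds collagen and integrins and takes part in collagen cross-linking, and Cilp is a secreted protein of cartilage and fibrotic tissue that binds TGF-β. In FAPs, Postn stood at 11.5 (8.75 to 14.8) CPM in 215 cells at day 2 against 2828 (2792 to 2865) in 805 cells at day 7, for a log2 fold of 7.94 (7.58 to 8.34). Cilp stood at 2.73 (1.49 to 4.58) and 1791 (1762 to 1820.2), for a log2 fold of 9.36 (8.61 to 10.2). Among the genes tested in FAPs these ranked 3rd and 1st from the top, by the ratios that chose them, so the ranks are a description.

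At day 2 both genes were close to the ambient level in FAPs. Ambient Postn was 6.88 (4.26 to 10.5) CPM and ambient Cilp 2.62 (1.13 to 5.16). At day 7 the ambient levels were themselves high, at 509 CPM for Postn and 338 for Cilp, yet the levels of all FAPs together lay several-fold above them. SoupX, the authors' ambient correction, removed 0.48% of the Postn counts and 0.51% of the Cilp counts in day 7 FAPs.

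The 3 FAP labels did not share 1 level. Postn at day 7 was 3403 (3356 to 3450) CPM in pro-remodeling FAPs, 1441 (1384 to 1500.3) in adipogenic FAPs and 1034 (955 to 1118) in stem FAPs. At day 2 it was 9.98, 19.7 and 13.4 CPM in the same order, with overlapping intervals. Cilp followed the same order at day 7, with 2135, 963 and 711 CPM and no overlap of intervals. At day 2 Cilp had 11 counts in pro-remodeling FAPs, 3 in adipogenic FAPs and 0 in stem FAPs. In the stem label the day 7 level of Cilp was at least 300.9-fold higher, with the day 2 sum set to a floor of 3 counts. Its 436 counts there lay in 33 of 78 cells, and 8 cells held 73.9% of them. The ambient level of Cilp that day was 338 CPM.

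The label Tenocytes, named for the cells of tendon, had the top level of both genes at day 7, in 48 cells. Of the tenocyte markers, Fmod was in 39.6% of these cells, Tnmd and Scx each in 29.2%, Kera in 18.75% and Mkx in 16.7%. At day 2 the shares were 81.25% for Fmod, 50% for Tnmd, 43.75% for Scx, 37.5% for Kera and 25% for Mkx. The FAP markers Dcn, Serping1, Gsn, Lum and Pdgfra were in 100%, 93.75%, 91.7%, 81.25% and 45.8% at day 7. The part of FAP-like cells in this label was not tested. Postn was at 6327 (6096 to 6565) CPM and Cilp at 5009 (4804 to 5221), above every FAP label. At day 2 only 16 tenocytes were kept, too few for a ratio, and their values are given side by side: Postn had 10 counts, or 63.3 (30.4 to 116) CPM, and Cilp 118 counts, or 747 (619 to 895). Those 118 counts were 87.4% of all 135 Cilp counts in annotated cells at day 2, against 10.4% from FAPs. At day 7 FAPs held 85.8% of 17010 Cilp counts and tenocytes 13.2%. Most Cilp counts thus lay in tenocytes at day 2, in 16 cells, and in FAPs at day 7, while FAPs were 6.77% and 25.2% of kept cells.

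Postn was spread over more annotated types at day 2. Of its 175 counts in annotated cells, FAPs held 33.7%, barcodes labelled Smooth Muscle 29.7% and 9 neural cells 28.0%. A further 217 counts lay in 680 barcodes that passed the same limits but had no annotation, and these shares leave them out. At day 7 FAPs held 86.8% of 26565 counts and tenocytes 10.6%. Neural cells, the glia and related cells of the muscle nerves, stood at 956 (829 to 1096) CPM in 41 cells at day 7, which overlapped the level of stem FAPs. Cilp had 3 counts in the same neural cells.

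Thinning each cell to 2000 counts removed differences in depth between cells. Of 213 thinned FAPs at day 2, 4 held Postn and 1 held Cilp. At day 7, 77.2% (74.1 to 80.1) of 785 held Postn and 68.7% (65.3 to 71.9) held Cilp. Unthinned shares were 10.7% and 87.1% for Postn and 3.72% and 84.5% for Cilp. T cells, which should lack both, held Postn in 4.44% and Cilp in 2.42% of 248 thinned cells at day 7, at a median depth of 3620 counts against 8429 in FAPs. Within FAPs the Postn share ran from 85.1% in pro-remodeling through 71.3% in adipogenic to 52.7% in stem cells, and the Cilp share from 81.0% through 62.5% to 24.3%.

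The pair was often found in the same cell. Of 785 thinned day 7 FAPs, 455 held both, 151 Postn alone, 84 Cilp alone and 95 neither. Cilp was present in 75.1% of cells with Postn and in 46.9% of those without. As both genes were highest in the pro-remodeling label, this joint presence includes differences between labels.

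**Figure D2:**
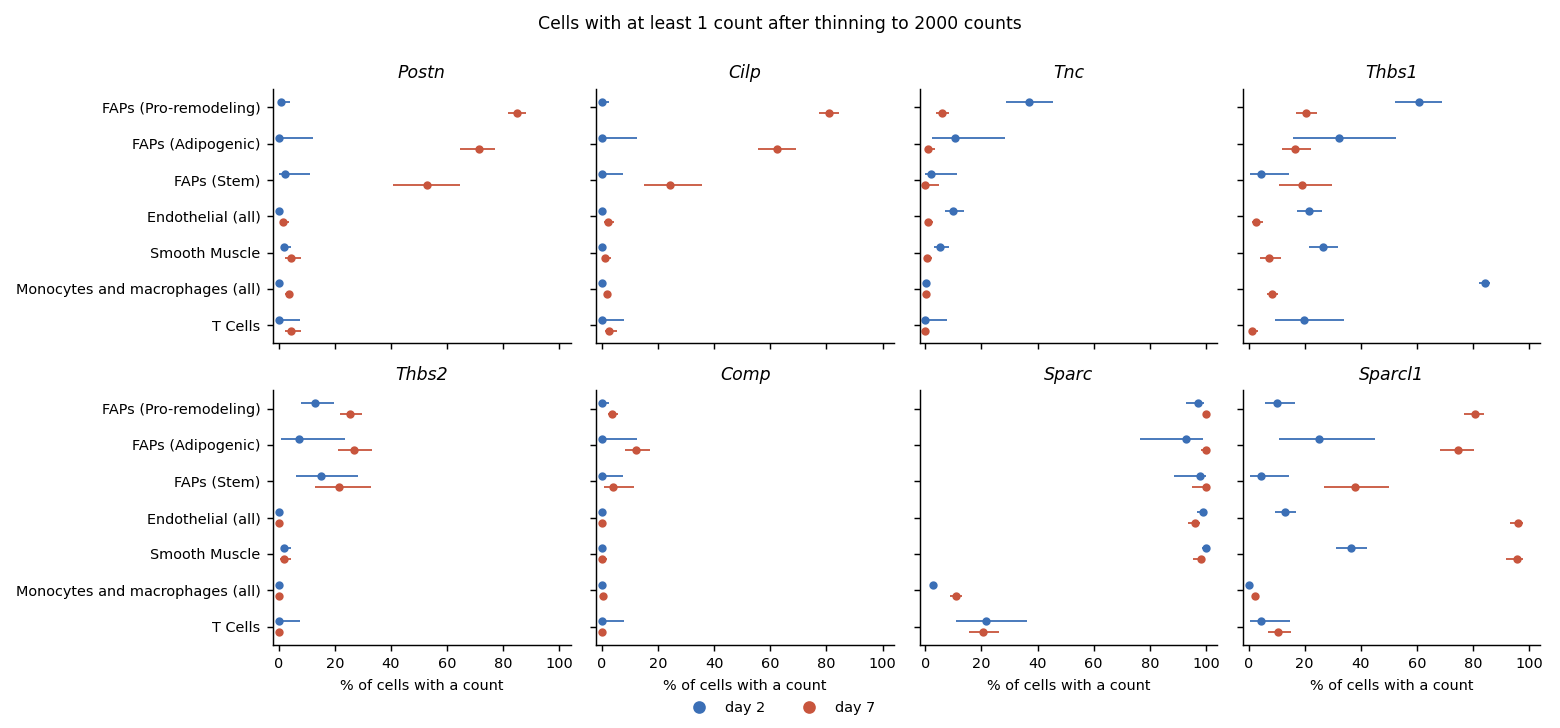
Share of cells with at least 1 count of each gene after thinning to 2000 counts, in %, for 7 groups of cells at day 2 (blue) and day 7 (red), with 95% Clopper-Pearson intervals. Postn and Cilp go from near 0 to most cells in the pro-remodeling FAPs, and Sparcl1 from 13.0% to 96.0% in endothelial cells.

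The reference promoters of Postn, Cilp and Tnc are shown because Postn and Cilp moved together in FAPs and Tnc had the opposite direction there. Each run is the 250 bases before the transcription start in the RefSeq table (GRCm38.p6), read in the direction of the gene; 5 of the 8 genes matched an entry. Capitals mark matches to TATAAA, the usual core promoter box, and CANNTG, the E-box. The windows are chr3:54360857-54361106 (plus strand) for Postn, chr9:65264930-65265179 (plus strand) for Cilp and chr4:64047016-64047265 (minus strand) for Tnc.
Postn: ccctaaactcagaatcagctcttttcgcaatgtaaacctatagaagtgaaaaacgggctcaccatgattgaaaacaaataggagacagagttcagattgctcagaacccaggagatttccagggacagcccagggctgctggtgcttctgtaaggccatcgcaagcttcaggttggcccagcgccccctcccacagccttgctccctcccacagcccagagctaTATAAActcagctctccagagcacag
Cilp: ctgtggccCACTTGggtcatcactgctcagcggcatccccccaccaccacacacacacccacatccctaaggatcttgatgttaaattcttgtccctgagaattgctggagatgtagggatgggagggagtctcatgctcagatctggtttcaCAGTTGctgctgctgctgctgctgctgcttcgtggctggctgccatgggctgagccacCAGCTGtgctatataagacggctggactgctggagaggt
Tnc: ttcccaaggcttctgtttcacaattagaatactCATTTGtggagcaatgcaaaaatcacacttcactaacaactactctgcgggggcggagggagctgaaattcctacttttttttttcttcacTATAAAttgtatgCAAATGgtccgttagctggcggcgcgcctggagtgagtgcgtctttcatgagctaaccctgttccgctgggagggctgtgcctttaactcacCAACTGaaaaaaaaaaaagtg

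The Postn window held 1 match to TATAAA, starting 26 bases before the start, and 0 matches to CANNTG. The Cilp window held 0 and 3 matches, and the Tnc window 1, starting 126 bases before the start, and 3. Over all 32851 windows of the table, 12.4% held TATAAA and 66.2% held CANNTG on either strand. TGANTCA, the AP-1 motif, was in 6.75% of all windows and in 0 of the 3 shown. CAGAC, the SMAD-binding element, was in 42.2% of all windows and in 0 of the 3. Postn and Tnc each have a second start in the table, whose window is not shown, and each of those windows held 1 match to CAGAC, starting 191 and 70 bases before that start. GGGCGG, the GC box, was in 32.7% of all windows and in Tnc alone of the 3. Motifs with N match more than 1 spelling, and no match says only that these letters are not in the window.

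Tnc and Thbs1 were lower at day 7 in FAPs, opposite to this pair. Tnc encodes a large hexameric glycoprotein of wounds and tendon that loosens cell adhesion. In FAPs it stood at 251 (238 to 265) CPM at day 2 against 73.4 (67.6 to 79.5) at day 7, for a log2 fold of -1.78 (-1.92 to -1.64), short of 4-fold. Taken as the mean over cells, the log2 fold was -2.78, past 4-fold. At day 2 Tnc stood at 346 CPM in pro-remodeling FAPs, 188 in adipogenic FAPs and 8.66 in stem FAPs, the last below the ambient level. At day 7 the same labels had 98.5, 10.9 and 0 CPM, so that only pro-remodeling FAPs were above the ambient level.

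At day 7 Tnc was held by few FAPs. Only 81 of 805 FAPs had a count, against 115 of 215 at day 2, and 1 cell held 16.7% of the 598 counts. After thinning, 19.7% (14.6 to 25.7) of FAPs held Tnc at day 2 and 4.97% (3.56 to 6.73) at day 7. At least 3 tenocyte marker counts were seen in 2 of 81 day 7 FAPs with Tnc and in 26 of 724 without, at medians of 13215 and 8175 counts.

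Tenocytes had the top Tnc level at day 7, at 1493 (1382 to 1611) CPM in 48 cells, beside 272 (197 to 367) in 16 cells at day 2. Tenocytes held 45.7% of the Tnc counts at day 7, up from 2.28%, and FAPs 40.9%, down from 68.4%. Neural cells followed at 224 (165 to 297) CPM. In endothelial cells Tnc stood at 88.7 (77.2 to 101) CPM at day 2 with 215 counts and at 3.58 (1.31 to 7.78) at day 7 with 6 counts, for a log2 fold of -4.63 (-6.09 to -3.49). The day 2 counts came mostly from capillary cells, at 145 CPM against 39.3 in the label Endothelial (Stem). Of these 215 counts, 130 lay in the 88 cells with at least 3 counts of the mural markers, at 165 CPM, and 85 in the other 248 cells, at 51.9 CPM. The mural marker counts of day 2 endothelial cells were mostly Rgs5, with 826, against 55 of Acta2, 19 of Myh11, 15 of Pdgfrb and 11 of Kcnj8. Without the cells with mural markers the log2 fold was -3.57 (-5.05 to -2.39). Ambient Tnc was almost the same on both days, at 27.2 and 30.4 CPM.

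Thbs1 was highest in monocytes, macrophages and neutrophils at day 2. Its product, thrombospondin-1, is released by platelets and macrophages, inhibits angiogenesis through CD36 and can activate TGF-β. Monocytes and macrophages together stood at 2869 (2843 to 2895) CPM in 1292 cells at day 2 against 71.8 (65.9 to 78.1) in 757 cells at day 7. The log2 fold of -5.32 (-5.44 to -5.20) was 13th from the bottom of 11318 genes tested there.

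Thbs1 was high in every monocyte and macrophage label at day 2. Inflammatory monocytes stood at 4180 (4101 to 4261) CPM, patrolling monocytes at 3340 (3273 to 3409), M1 macrophages at 2845 (2805 to 2886) and Cxcl10+ monocytes at 2824 (2661 to 2995), the last 2 with overlapping intervals. Neutrophils, at 2348 (2281 to 2417) in 708 cells, came next. Below them were the Cx3cr1_lo and Cx3cr1_hi M2 macrophages, at 1875 and 1365 CPM. At day 7 the 6 monocyte and macrophage labels lay between 25.9 and 83.8 CPM, around the ambient level of 60.0. The log2 folds ran from -4.40 in Cx3cr1_hi M2 macrophages to -6.77 in Cxcl10+ monocytes. Dendritic cells stood far lower at day 2, at 108 CPM, and had 1 count at day 7.

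By cells, 84.2% (82.1 to 86.1) of thinned monocytes and macrophages held Thbs1 at day 2 and 8.37% (6.49 to 10.6) at day 7, with unthinned shares of 92.4% and 21.1%. Neutrophils held it in 59.6% (55.3 to 63.8) of 537 thinned cells at day 2. Since platelets carry Thbs1 RNA, their markers were summed beside it. In day 2 monocytes and macrophages 2 of 5 platelet markers were seen, at 116 CPM in all, and Gp9, Gp1bb and Gp6 were at 0. Over the 6 labels the sum ran from 1.15 CPM in Cx3cr1_hi to 179.8 in Cx3cr1_lo M2 macrophages, and it was 4.76 in inflammatory monocytes, which had the top Thbs1 level. At day 7 the sum over all monocytes and macrophages was 1.06 CPM.

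Free Thbs1 RNA was abundant at day 2, with an ambient level of 933 (899 to 968) CPM, and this bears on cells with less. FAPs stood at 628.5 (607 to 651) CPM at day 2 against 165 (156 to 174) at day 7, for a log2 fold of -1.93 (-2.02 to -1.84). After thinning, 60.9% of pro-remodeling FAPs and 32.1% of adipogenic FAPs held Thbs1 at day 2 but 4.26% of stem FAPs, against 19.6% (9.36 to 33.9) of T cells. Median depths were 24329 counts in FAPs and 3318.5 in T cells. Only the pro-remodeling share lay above the T cell interval. By label, pro-remodeling FAPs went from 842 to 182 CPM, for a log2 fold of -2.21 (-2.31 to -2.11), past 4-fold. Adipogenic FAPs went from 452 to 125 CPM, for a log2 fold of -1.85 (-2.16 to -1.55). Stem FAPs did not share the direction of the class, with 89.0 CPM at day 2 and 109 at day 7, for a log2 fold of 0.30 (-0.16 to 0.74). In endothelial cells (201 to 34.6 CPM) and barcodes labelled Smooth Muscle (190 to 38.4 CPM), the thinned shares at day 2 were 21.4% and 26.5%, within the interval of the T cell share. This reference rests on few cells, and at least 8 of the 50 T cells carried endothelial markers. By level, endothelial cells (183 to 219) and barcodes labelled Smooth Muscle (178 to 202) lay above T cells, at 110 (74.3 to 157) CPM, and below the ambient level; the part of background in their Thbs1 was not tested.

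At day 7 the top Thbs1 levels were in tenocytes at 239 CPM, vein endothelial cells at 215, pro-remodeling FAPs at 182 and MuSCs (muscle stem cells) at 145, and neighbours in this order had overlapping intervals. The vein value rested on 21 cells, 1 of which held 64.7% of its 34 counts. Monocytes and macrophages held 83.1% of 56906 Thbs1 counts at day 2 and 21.2% of 2543 at day 7, when FAPs held 52.9% and myogenic cells 14.0%.

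**Figure D3:**
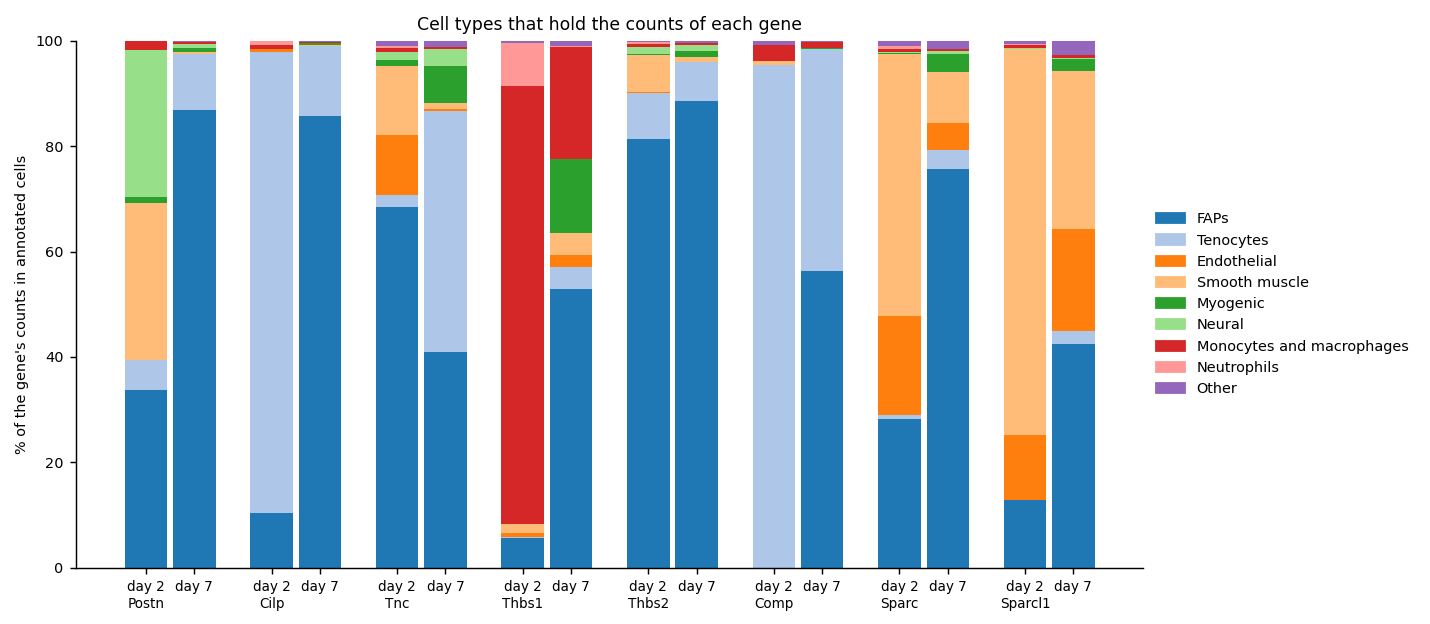
Share of each gene's counts in annotated cells that lay in each group of cell types, in %, at day 2 and day 7; Smooth muscle stands for barcodes with that label. FAPs (dark blue) hold the largest share of 7 of the 8 genes at day 7, while monocytes and macrophages (red) hold 83.1% of Thbs1 at day 2.

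FAPs held most of the Thbs2 counts on both days. Thrombospondin-2 is a matrix protein that regulates collagen fibril assembly. It stood at 57.1 (50.7 to 64.0) CPM in FAPs at day 2 and at 202 (192 to 212) at day 7, for a log2 fold of 1.82 (1.64 to 2.01). FAPs held 81.4% of its counts at day 2 and 88.5% at day 7. Among FAPs at day 2 the stem label was highest, at 74.0 CPM, with an interval that overlapped the 54.2 CPM of pro-remodeling FAPs. At day 7 pro-remodeling and adipogenic FAPs were level at 207 and 204 CPM, stem FAPs stood at 147, and tenocytes at 309 (259 to 365). The 16 tenocytes of day 2 stood at 196 (133 to 279) CPM, also above FAPs. The log2 fold was 3.01 (2.07 to 4.15) in adipogenic FAPs, 1.93 (1.71 to 2.16) in pro-remodeling FAPs and 0.99 (0.55 to 1.42) in stem FAPs. Endothelial cells had 1 count on each day.

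Comp, cartilage oligomeric matrix protein, is a thrombospondin of tendon and cartilage that binds collagen fibrils. FAPs had 0 counts at day 2, where 3 counts would be 0.584 CPM and the exact interval reached 0.719, and 492 counts or 60.4 (55.2 to 65.9) CPM at day 7, at least 103-fold higher against a floor of 3 counts. At day 2, 127 of the 133 Comp counts were in the 16 tenocytes. At day 7 FAPs held 56.3% of 874 counts and tenocytes 42.1%. Comp was highest among FAPs in the adipogenic label, at 193 (172 to 215) CPM, against 28.5 (24.4 to 33.2) in pro-remodeling and 11.4 (4.59 to 23.5) in stem FAPs. This order differed from that of Postn and Cilp. The ambient level was 26.4 (22.1 to 31.3) CPM, so that adipogenic FAPs stood above it and the interval of pro-remodeling FAPs overlapped it. In tenocytes Comp was at 804 (670.5 to 957) CPM in 16 cells at day 2 and 824 (742 to 912) in 48 cells at day 7.

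Few cells held Comp. It was found in 107 of 805 day 7 FAPs, and the 81 cells with most of it held 94.7% of the counts. In tenocytes it was found in 10 of 48 cells at day 7, and 1 cell held 47.8% of the 368 counts. Among day 7 FAPs with Comp, 8.41% had at least 3 tenocyte marker counts, against 2.72% of those without, at medians of 11588 and 8137 counts; the part of tenocyte RNA in these values was not tested. The summed tenocyte markers were at 58.0 CPM in FAPs with Comp and 25.6 in those without, at 69.8 and 22.1 in pro-remodeling FAPs, and at 35.9 and 51.2 in adipogenic FAPs, where the shares with at least 3 marker counts were 6.82% and 3.72%. The 777 day 7 FAPs with under 3 tenocyte marker counts held Comp at 52.9 (47.9 to 58.2) CPM. After thinning, 5.99% (4.43 to 7.88) of day 7 FAPs held Comp, while 0 of 248 T cells did, for which 3 cells would be 1.21% and the Clopper-Pearson interval reached 1.48%. Comp was found in 5.75% of thinned FAPs with Cilp and 6.50% of those without.

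Sparc and Sparcl1 were found in both stroma and vessels, as Tnc was at day 2. SPARC (osteonectin) binds collagen and is needed for its orderly assembly, and Sparcl1 (hevin) is its relative, known in vessels and brain. In FAPs, Sparc stood at 2231 (2190 to 2272) CPM at day 2 against 12044 (11968 to 12119) at day 7, for a log2 fold of 2.43 (2.40 to 2.46). The 3 FAP labels were close to each other at day 7, at 12685 CPM in stem, 12217 in pro-remodeling and 11185 in adipogenic FAPs, with no overlap of intervals. Sparc was in 96.7% of thinned FAPs at day 2 and in all 785 at day 7. Tenocytes stood at 10434 (10137 to 10738) CPM at day 7 beside 2065 (1847 to 2301) at day 2.

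In vessels Sparc differed less between the days. Endothelial cells stood at 3167 (3096 to 3238) and 3986 (3891 to 4082) CPM, for a log2 fold of 0.33 (0.28 to 0.38). Barcodes labelled Smooth Muscle stood at 3967 (3912 to 4022) and 4637 (4557 to 4719), for a log2 fold of 0.23 (0.19 to 0.26). They held 49.8% of all Sparc counts at day 2 and 9.68% at day 7, when FAPs held 75.6%. MuSCs stood at 2105 (2002 to 2211) CPM at day 7, close to the ambient 1897, and myoblasts and progenitors at 1150.2 (1108 to 1193).

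Sparcl1 was higher at day 7 in FAPs, endothelial cells and barcodes labelled Smooth Muscle alike. In endothelial cells it stood at 102 (89.5 to 115) CPM in 336 cells at day 2 against 2368 (2295 to 2443) in 333 cells at day 7, for a log2 fold of 4.54 (4.35 to 4.73), the 13th highest of 9616 genes tested. That ratio was among those that chose the genes, so the rank is a description. Of the 4 genes with enough endothelial counts 1, Sparcl1, was at least 4-fold higher and 2, Tnc and Thbs1, at least 4-fold lower, where 4.05% and 2.03% of all genes were.

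The endothelial labels had the same pattern. Capillary cells stood at 115 (96.7 to 135) and 2480 (2377 to 2586) CPM, and the label Endothelial (Stem) at 109 (87.2 to 135) and 2645 (2499 to 2797). At day 7 artery cells were at 2084 CPM and vein cells at 1226, while at day 2 these labels had 15 and 12 cells and are not compared. After thinning, 13.0% (9.53 to 17.0) of endothelial cells held Sparcl1 at day 2 and 96.0% (93.2 to 97.8) at day 7, with unthinned shares of 29.5% and 98.5%. Ambient Sparcl1 was 27.5 CPM at day 2 and 489 at day 7. Among T cells 10.5% held it at day 7.

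In FAPs, Sparcl1 stood at 49.7 (43.8 to 56.2) CPM at day 2 against 1068 (1046 to 1091) at day 7, for a log2 fold of 4.43 (4.25 to 4.61), and the share of thinned cells went from 7.98% to 72.7%. With equal weight for the 3 FAP labels the log2 fold was 3.36. At day 7 it was 1198 CPM in pro-remodeling, 868 in adipogenic and 356 (310 to 406) in stem FAPs, the last below the ambient level of 489. At day 2 adipogenic FAPs were highest, at 171 CPM, and stem FAPs lowest, at 14.2. Sparc had a narrower range over the FAP labels at day 2, from 2156 to 2769 CPM.

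Barcodes labelled Smooth Muscle stood at 287 (273 to 302) CPM of Sparcl1 at day 2, the highest of the 18 types, and 2265 (2209 to 2322) at day 7, for a log2 fold of 2.98 (2.90 to 3.06). They held 73.3% of all Sparcl1 counts at day 2 and 29.9% at day 7. The value at day 2 differed within the label. The 198 cells with at least 3 counts of the 5 mural markers stood at 359 (340 to 379) CPM, and the 106 cells below that at 78.5 (64.1 to 95.3). At day 7 the same split gave 2244 (2176 to 2314) CPM in 147 cells and 2307 (2208 to 2408) in 85 cells. The log2 fold was thus 2.64 (2.56 to 2.73) with the mural markers and 4.88 (4.59 to 5.18) without them. For Sparc the same ratios were 0.05 (0.01 to 0.09) and 0.67 (0.61 to 0.73).

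**Figure D4:**
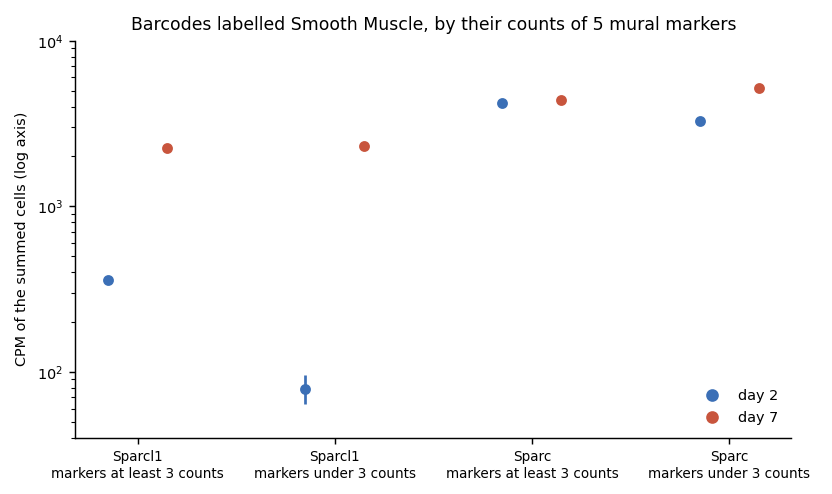
Level of Sparcl1 and Sparc, as CPM on a log axis, in barcodes labelled Smooth Muscle with at least 3 or under 3 counts of 5 mural markers, at day 2 (blue) and day 7 (red), with 95% counting intervals. At day 2 Sparcl1 was 359 CPM with the markers and 78.5 without, and at day 7 both lay between 2244 and 2307.

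Among barcodes labelled Smooth Muscle, 1 of the 6 genes tested was at least 4-fold higher and 2, Tnc and Thbs1, at least 4-fold lower, against 3.76% and 1.59% of 11039 genes. Postn had a log2 fold of 1.57 (1.05 to 2.10) there, from 10.2 to 30.3 CPM, below the ambient level of day 7. SoupX removed 56.5% of those day 7 counts and left a log2 fold of 0.41.

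In monocytes and macrophages 4 of 6 genes tested, Postn, Cilp, Sparc and Sparcl1, were at least 4-fold higher and Thbs1 at least 4-fold lower, where 7.47% and 2.49% of genes were. The 4 higher genes were at 14.4, 6.38, 58.2 and 13.0 CPM at day 7, against ambient levels of 509, 338, 1897 and 489. These levels are all below the ambient level, and the part of background in them was not tested. The nearest value to the limit was Sparc, at a log2 fold of 2.02, which was 1.29 in SoupX values.

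Sparc in lymphocytes lay in few cells. At day 2, 8 of 50 T cells had at least 5 Sparc counts and held 98.9% of the Sparc counts of that label, and all 8 had at least 3 counts of endothelial markers. At day 7 it was 23 of 293 T cells with 96.3%, and 21 of them had endothelial markers.

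**Figure D5:**
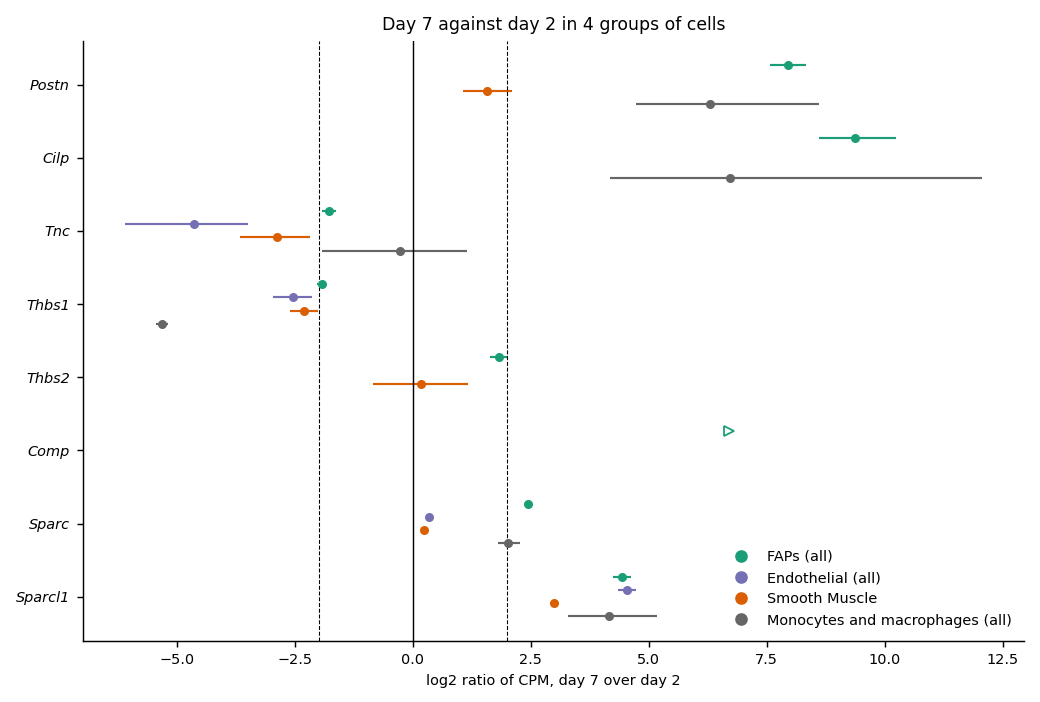
Log2 ratio of CPM, day 7 over day 2, of each gene in 4 groups of cells, with 95% counting intervals; dashed lines mark 4-fold and the open triangle is the lower bound for Comp in FAPs. Sparcl1 is right of the upper line in all 4 groups and Thbs1 left of 0 in all 4; several points rest on a level below ambient on at least 1 day, among them those of monocytes and macrophages other than Thbs1, Thbs1 in the other 3 groups and Postn in barcodes labelled Smooth Muscle.

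Other genes of the same families and their partners were taken by list. Of 13 family relatives 7 could be tested in FAPs, and 3 were at least 4-fold higher and 0 lower, with a median log2 fold of 1.81. These were the thrombospondins Thbs3, from 24.9 to 315 CPM, and Thbs4, from 130 to 1084 CPM, and the tenascin Tnxb, from 199 to 911 CPM. In endothelial cells 2 of 4 relatives, Smoc2 and Fstl1, were at least 4-fold higher, against 4.05% and 2.03% of all genes higher and lower there. Smoc2, a SPARC-family protein, had 2 and 19 counts, or 0.825 and 11.3 CPM, below the ambient 393 of day 7, and went from 1.09 to 8.24 CPM in monocytes and macrophages. Among barcodes labelled Smooth Muscle 0 of 5 were higher and 1, Tgfbi, lower, against 3.76% and 1.59% of all genes. Fstl1 and Tgfbi are named to complete the counts, after their values were seen, as is Fn1 below.

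Of the receptors, 12 of 13 were tested in FAPs, with 1 higher, 1 lower and a median of 0.49. Itga8, an integrin chain that binds tenascin-C, had 1 count at day 2 and 68 at day 7, and Sdc4, the heparan sulfate proteoglycan syndecan-4, stood at 483 and 89.6 CPM. In endothelial cells 1 of 10 was higher and 1 lower. Cd36, the thrombospondin receptor, stood there at 299 CPM at day 2 and 1916 at day 7, for a log2 fold of 2.68 (2.56 to 2.80), and Itgb3 had 28 and 2 counts. Among barcodes labelled Smooth Muscle Cd36 and Itga8 were 2 of 12 at least 4-fold higher, Cd36 at 351 and 1734 CPM.

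Of the 7 matrix partners, 5 were at least 4-fold higher in FAPs and 0 lower, with a median log2 fold of 3.002. They were Fn1 (fibronectin) and 4 collagen genes. The fibrillar collagens led: Col1a1 stood at 632 and 20135 CPM, Col3a1 at 1563 and 25357, Col1a2 at 840 and 12525 and Col5a1 at 199.7 and 1600. In endothelial cells Col1a1, Col1a2 and Col3a1 were 3 of 5 at least 4-fold higher, at 38.7 to 107 CPM at day 7, far below their ambient levels of 1909 to 4055. The same 3 genes stood at 36.2 to 77.4 CPM at day 7 in monocytes and macrophages, so these endothelial values cannot be told apart from background. Among barcodes labelled Smooth Muscle 1 of 7, Col3a1, was higher, at 166 CPM at day 7, also below ambient. A share of any of these lists cannot be read as particular to it, since 10.7% of all genes tested in FAPs, 4.05% in endothelial cells and 3.76% in barcodes labelled Smooth Muscle were as much higher.

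Genes with the most similar profile were found by Pearson correlation of log2(CPM + 1) over 41 sums of a cell type and library, among 11230 genes. These points share 2 libraries, so the values are a description. Postn was most like Mfap4 (0.91), Mmp2 (0.90) and Ctsf (0.90), and Cilp most like Mfap4 (0.93), Pdgfrl (0.87) and Postn (0.87). Comp was most like Tnmd (0.87), the tendon marker tenomodulin, Pamr1 and Lrrc15 (both 0.83). Thbs2 was most like Col16a1 (0.94), Fzd2 (0.94) and Lox (0.92), the collagen cross-linking enzyme. Sparc was most like the basement membrane genes Hspg2 (0.98) and Lama4 (0.96), with Nfib (0.97) between them, and Sparcl1 most like Fmo1 (0.94), Col15a1 (0.93) and Iigp1 (0.92). Tnc and Thbs1 had no gene above 0.80 when rounded: Tnc was nearest to Col12a1 (0.79), Ddb1 (0.75) and Adgra3 (0.75), and Thbs1 to Sgms2 (0.80), Por (0.79) and Vmp1 (0.76). Several lists changed with the setting. With Spearman correlation 0 of 3 genes stayed for Postn, Tnc and Comp, and with sums of at least 50 cells 0 of 3 stayed for Postn, Tnc, Thbs2 and Comp.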

How the data were processed

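For all barcodes and for called cells, the files the authors deposited hold raw UMI counts. A further matrix of the authors holds estimated counts after ambient correction by SoupX, with fractional values. Per the file headers the counts came from Cell Ranger 3.0.1, while the submitters' processing notes name 3.1.0 and Seurat 3.1.5, with mm10. The deposited annotation names a cell type per barcode. The authors' methods state that putative doublets were removed before annotation; no doublet caller was run here.

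Cells were kept when annotated and, in the SoupX values, at least 750 genes, 1000 transcripts and at most 30% mitochondrial. Counts were summed per type and library. Intervals were exact Poisson (sums), conditional binomial (ratios) and Clopper-Pearson (shares), tested on simulated data; they cover counting error only. Genes with at least 20 counts in a class were compared at 4-fold, with counts under 3 taken as 3. Python 3.11.15, numpy 2.4.6 and scipy 1.17.1 were used. Named genes were the 8 members, up to 4 per list with the largest log2 ratio among those past 4-fold in FAPs, endothelial cells or barcodes labelled Smooth Muscle, and the 3 genes most like each member. Members and lists were chosen with earlier results of these data known. The splits by marker counts were chosen after seeing the data. Alternatives were SoupX values, other cell limits, scalings, weights, folds and filters.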

Additional observations from a re-analysis of the deposited data

Results flagged for a closer look

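Called barcodes that passed the same quality limits as the kept cells but had no entry in the annotation were used in no comparison, and signal in them was flagged for that reason. There were 680 at day 2 and 477 at day 7. At day 2 they held Thbs1 at 1392 CPM, Sparc at 1270, Tnc at 98.6, Sparcl1 at 47.0, Postn at 37.9, Thbs2 at 22.9, Comp at 5.77 and Cilp at 5.25. At day 7 they held Sparc at 2936 CPM, Sparcl1 at 845, Postn at 294, Cilp at 142, Thbs1 at 60.3, Tnc at 33.7 and Thbs2 at 14.8. What these barcodes are was not tested.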

How the results depend on the processing

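The 19 log2 ratios were recomputed under other settings, giving 124 values. Of these 100 stayed within the counting interval, 24 lay outside it in the same direction and 0 reversed. In FAPs, the mean over cells gave 7.30 for Postn, -2.78 for Tnc (past 4-fold), 2.28 for Sparc and 4.08 for Sparcl1, and in monocytes and macrophages -5.54 for Thbs1. Weighting the FAP labels equally gave 7.09 for Postn, 8.36 for Cilp, -2.31 for Tnc (past 4-fold), -1.73 for Thbs1, 2.32 for Sparc and 3.36 for Sparcl1. A total without mitochondrial, ribosomal protein and myofibre genes gave -1.95 for Tnc, -2.11 for Thbs1 (past 4-fold) and 2.26 for Sparc. Median-of-ratios scaling gave 2.52 for Sparc in FAPs, and moved the median of all genes by -0.12 in monocytes and macrophages. The cause of these shifts was not tested. At a 2-fold limit 3031 genes were higher and 1654 lower in FAPs, 1428 and 914 in endothelial cells, 1555 and 868 in barcodes labelled Smooth Muscle, and 2186 and 1453 in monocytes and macrophages. With at least 100 counts, 668 genes were higher in FAPs, 149 higher and 94 lower in endothelial cells, 152 and 92 in barcodes labelled Smooth Muscle, and 346 higher in monocytes and macrophages. With no filter 691 were higher in barcodes labelled Smooth Muscle and 1340 in monocytes and macrophages. Fewer or more genes enter by construction of these filters. Outside the FAP values, equal weights moved Thbs1 in endothelial cells from -2.54 to -3.82, a setting that holds capillary and Stem cells alone, and SoupX moved Postn in barcodes labelled Smooth Muscle from 1.57 to 0.41. No paired analysis was possible because each day had 1 library. With 1 library per day no difference could be set against the spread between mice, and levels under 3 counts are not detectable at this depth.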
